A study of Mus musculus with 9 samples.

Results

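The CCAAT-box factors outside the C/EBP family were followed in RAW264.7 macrophages, a mouse macrophage line, at the level of RNA. They were chosen from a list of genes whose products are known for binding the CCAAT box but which do not belong to the C/EBP bZIP proteins, and their symbols were matched to the Ensembl identifiers of the count files. The list holds 6 genes, Nfya, Nfyb, Nfyc, Cebpz, Ybx1 and Ybx3, of 55487 identifiers in the files, and all 6 were among the 14312 genes that passed the filter on low counts. The study compared 3 libraries of wild-type cells with 3 libraries of C/EBPδ knock-out cells and 3 libraries of cells that carry C/EBPδ without its transactivation domain (ΔTAD). In both edited genotypes Cebpd was cut on either side of the transactivation domain with CRISPR/Cas9, and clones with an out-of-frame deletion served as knock-out. All cells were grown in the same medium and taken without stimulation. The design text speaks of 3 independent clones, but it does not say which library comes from which clone, so p-values measure the spread between these libraries.

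NF-Y is a trimer that recognises the CCAAT box of many promoters. Its NF-YB and NF-YC subunits pair through histone folds, and NF-YA joins this pair and makes the contacts with the CCAAT bases. NF-YA is often the subunit whose amount limits the complex, whereas C/EBP proteins, despite their name, prefer a different and palindromic element. CEBPZ carries CCAAT-binding factor in its name and is also a nucleolar protein of the family that assembles the large ribosomal subunit. YBX1 and YBX3 are cold-shock-domain proteins that were named for the Y-box, an inverted CCAAT element, and that also bind mRNA in the cytoplasm. The study set knock-out beside ΔTAD cells to ask whether other transcription factors take the place of C/EBPδ when the protein is absent.

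Each library held between 16113306 and 20981829 counts on genes. Cebpd itself, the edited gene, had 6.13, 7.29 and 6.12 counts per 1000000 (CPM) in wild-type, 5.22, 5.5 and 5.61 CPM in knock-out and 4.9, 5.23 and 6.19 CPM in ΔTAD libraries. Its fitted log2 change, -0.26 for knock-out and -0.24 for ΔTAD cells, did not pass the threshold, and a count over the whole gene cannot show an out-of-frame deletion. The summed level of 8 macrophage markers lay between 3284 and 3485 CPM in wild-type, 4380 and 4755 CPM in knock-out and 6890 and 7040 CPM in ΔTAD libraries. Most of this rise was in lysozyme, Lyz2, with means of 1167, 2114 and 4192 CPM, and the other 7 markers summed to between 2185 and 2301, 2373 and 2475, and 2731 and 2795 CPM. Of the 8 markers 5 were called higher in knock-out and 6 in ΔTAD, where 22.8% and 26.3% of all genes were. However, Fcgr1, an Fc receptor gene, was called lower in both (-1.14 and -0.44 on the log2 scale). None of the 12 markers of T cells, B cells, fibroblasts and epithelium had more than 3 counts in any library. The part of this marker difference in the results that follow was not tested. In bulk RNA, fewer cells with a transcript and less of it per cell cannot be told apart. On chromosome 17, which carries Nfya and Cebpz, the median log2 fold change of the 746 genes tested was 0.48 in knock-out and 0.50 in ΔTAD, against -0.00 over all genes in both comparisons. On chromosome 12, which carries none of the 6 genes, it was -0.52 and -0.54.

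Because these factors read a DNA element, the windows around their own start sites are shown first. RefSeq windows of 300 bases on GRCm38.p6, from 250 bases before the start to 50 bases after, were found for 5 of the 6 genes, with 9 windows in all. All 5 genes lie on the minus strand, and the sequences run 5′ to 3′ on that strand with CCAAT, or ATTGG where the box lies on the other strand, in capitals. Nfya and Nfyc have 3 windows each, of which 1 is printed, and the windows were chosen to set the members of NF-Y beside each other and beside Ybx1.
Nfya, chr17:48409771-48410070: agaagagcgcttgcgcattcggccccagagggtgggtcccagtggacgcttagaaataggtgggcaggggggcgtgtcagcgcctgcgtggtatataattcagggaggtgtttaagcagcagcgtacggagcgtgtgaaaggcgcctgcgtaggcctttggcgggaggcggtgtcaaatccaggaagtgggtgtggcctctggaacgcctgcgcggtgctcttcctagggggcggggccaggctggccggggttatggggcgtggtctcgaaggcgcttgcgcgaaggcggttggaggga
Nfyb, chr10:82764092-82764391: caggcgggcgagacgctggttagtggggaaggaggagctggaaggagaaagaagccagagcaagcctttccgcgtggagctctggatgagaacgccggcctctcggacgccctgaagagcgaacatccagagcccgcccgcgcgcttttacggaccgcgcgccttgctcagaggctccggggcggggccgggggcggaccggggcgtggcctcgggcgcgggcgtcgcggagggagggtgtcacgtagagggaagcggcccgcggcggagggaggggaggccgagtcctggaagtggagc
Nfyc, chr4:120825160-120825459: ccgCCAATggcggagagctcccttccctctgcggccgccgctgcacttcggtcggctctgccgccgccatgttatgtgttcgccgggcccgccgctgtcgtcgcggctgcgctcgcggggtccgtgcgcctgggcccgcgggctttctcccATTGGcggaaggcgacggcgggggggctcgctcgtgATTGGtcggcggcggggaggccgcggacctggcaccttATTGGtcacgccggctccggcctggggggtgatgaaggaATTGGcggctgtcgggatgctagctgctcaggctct
Ybx1, chr4:119294464-119294763: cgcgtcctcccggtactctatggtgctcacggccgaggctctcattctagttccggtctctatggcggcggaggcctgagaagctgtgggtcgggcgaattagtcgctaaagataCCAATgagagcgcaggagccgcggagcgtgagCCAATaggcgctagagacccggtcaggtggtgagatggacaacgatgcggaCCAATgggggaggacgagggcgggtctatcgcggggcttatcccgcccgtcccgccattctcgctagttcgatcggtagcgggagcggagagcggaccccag
The printed window of Nfya and a second that overlaps it hold no CCAAT on either strand, but the third, further into the gene at chr17:48400531-48400830, holds 1. The windows of Nfyb and Ybx3 hold none. The 3 windows of Nfyc hold 5 (the one printed), 3 and 0, and that of Ybx1 holds 3, the first beginning at -135 and the last at -52 from the start site. Of all 32851 windows, 37.4% hold at least 1 CCAAT and 3.37% hold 3 or more. The pattern TTGCNNAA, which was searched as a loose form of the palindromic C/EBP site and is not itself a palindrome, is in 10.8% of all windows and in none of these 9. A match of letters is no evidence of binding.

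Per kilobase of exon the 6 genes ranked in the same order in all 3 genotypes, with Ybx1 first, followed by Ybx3, Cebpz, Nfya, Nfyc and Nfyb. In wild-type macrophages Ybx1 had 228 ± 5.07 and Ybx3 177 ± 0.788 CPM per kb (SD, n = 3). Cebpz had 43.4 ± 1.15 CPM per kb, and the 3 subunits of NF-Y had 20.1 ± 0.555 for Nfya, 8.22 ± 0.0674 for Nfyc and 7.17 ± 0.461 for Nfyb. The Y-box genes thus stood well above the NF-Y genes on this scale. Neighbours in the order were separated in every library, except that Nfyc and Nfyb overlapped in knock-out macrophages. With the longest transcript in place of all exons as the length, Nfya passed Cebpz in knock-out (69.7 against 54.5 CPM per kb) and in ΔTAD (66.4 against 59.1), but not in wild-type.

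**Figure D1:**
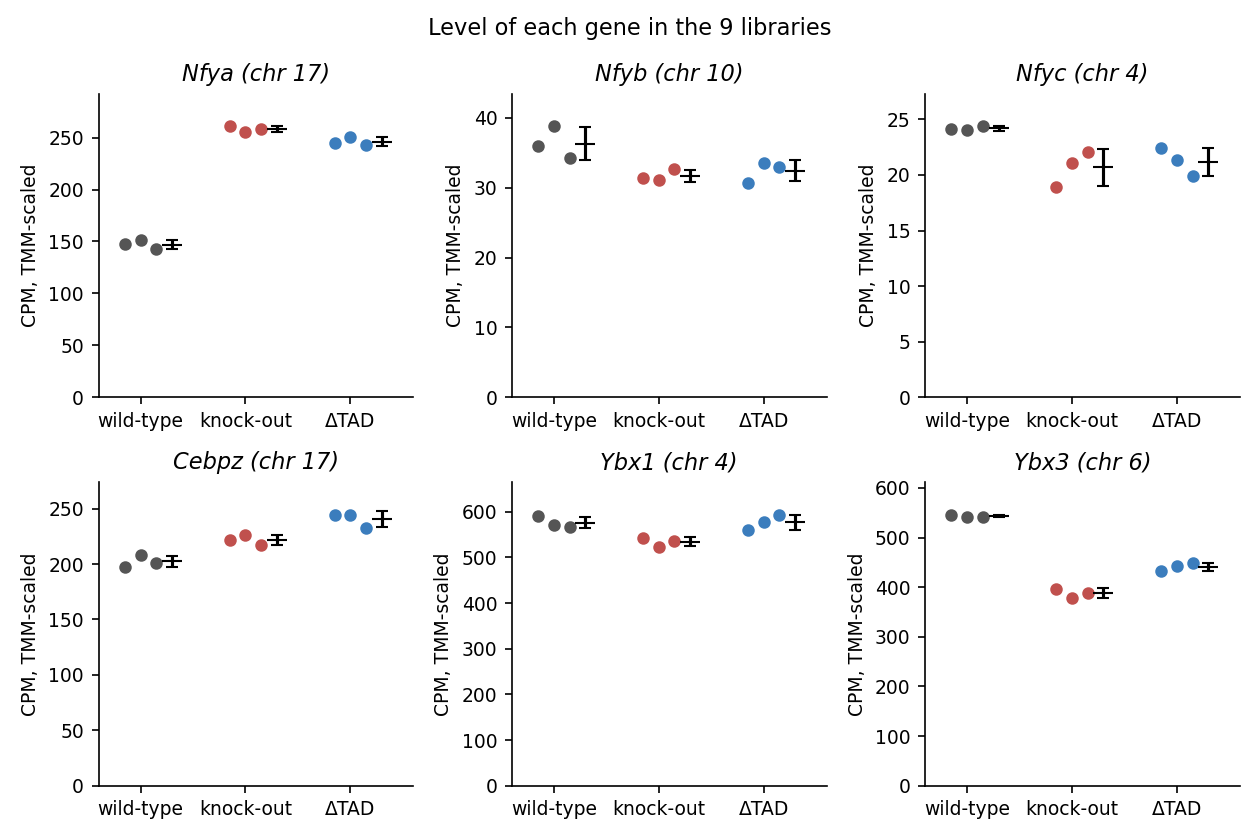
Level of the 6 CCAAT-box factor genes in TMM-scaled CPM (y axis, from 0) in the 3 libraries of each genotype (points), with mean and SD to the right. Nfya lies between 143 and 151 CPM in wild-type and between 243 and 261 CPM in the edited cells, whereas Ybx3 lies lower in both, and the ranges of Ybx1 overlap between wild-type and ΔTAD.

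Compared with wild-type, Nfya was the member with the largest fold change, about 1.76-fold higher in knock-out and 1.67-fold higher in ΔTAD macrophages. Nfya, the DNA-contacting subunit of NF-Y (ENSMUSG00000023994, chr17:48386885-48409906), had 147, 151 and 143 CPM in wild-type, 261, 255 and 259 CPM in knock-out and 245, 251 and 243 CPM in ΔTAD libraries. All 6 edited libraries were above all 3 wild-type libraries. The log2 fold change was 0.81 (SE 0.0356, adjusted p = 1.01e-15) in knock-out and 0.74 (SE 0.0356, adjusted p = 4.65e-15) in ΔTAD (edgeR, quasi-likelihood test, Benjamini-Hochberg adjusted over all genes). The library ranges of knock-out and ΔTAD did not overlap, but the log2 difference of 0.07 had a 95% interval of -0.00 to 0.14 and did not pass the threshold (adjusted p = 0.103). Counts per gene do not separate the splice forms of NF-YA, which differ in the activation domain.

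The histone-fold subunits went the other way by a small amount. Nfyb (ENSMUSG00000020248, chr10:82748701-82764144) had 35.9, 38.8 and 34.2 CPM in wild-type, 31.4, 31.1 and 32.7 CPM in knock-out and 30.7, 33.6 and 33.0 CPM in ΔTAD libraries. The knock-out value was lower by 0.20 on the log2 scale, called at an adjusted p of 0.00691, whereas the ΔTAD value of -0.16 (95% interval -0.28 to -0.04, adjusted p = 0.0227) was not called. The ranges of both edited genotypes lay below the wild-type range. Nfyc (ENSMUSG00000032897, chr4:120757438-120831572) had 24.1, 24 and 24.4 CPM in wild-type, 18.9, 21.1 and 22.1 CPM in knock-out and 22.4, 21.3 and 19.9 CPM in ΔTAD libraries. Its log2 fold change was -0.23 in knock-out (adjusted p = 0.00862) and -0.20 in ΔTAD (95% interval -0.34 to -0.05, adjusted p = 0.0191), of which only the former was called. Between the edited genotypes neither gene differed past the threshold, with log2 differences of -0.04 (95% interval -0.16 to 0.09) for Nfyb and -0.03 (95% interval -0.18 to 0.12) for Nfyc.

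Taking ratios within a library removes the scaling between libraries, and here the NF-Y genes moved apart. Per kilobase, Nfya exceeded Nfyb 2.81-fold ± 0.104 in wild-type, 5.65-fold ± 0.147 in knock-out and 5.26-fold ± 0.237 in ΔTAD macrophages (SD, n = 3). Nfya exceeded Nfyc 2.45-fold in wild-type, 5.05-fold in knock-out and 4.68-fold in ΔTAD macrophages. No edited library overlapped a wild-type library in either ratio, with log2 differences of 1.01 and 1.04 in knock-out and 0.91 and 0.93 in ΔTAD. The exact two-sided permutation p was 0.1 for each of these, which is the smallest that 3 against 3 libraries allow, and 0.171 after Benjamini-Hochberg adjustment over 12 tests. By contrast, the ratio of Nfyb to Nfyc was 0.872 in wild-type, against 0.893 in knock-out and 0.891 in ΔTAD, with overlapping ranges and exact permutation p-values of 0.7, 0.8 and 0.9 for the 3 comparisons. Nfya accordingly made up 56.6% of the summed NF-Y level per kilobase in wild-type, but 72.7% in knock-out and 71.2% in ΔTAD macrophages. These shares and ratios depend on the length used. With the longest transcript the wild-type log2 ratios of Nfya to Nfyb and to Nfyc were 2.03 and 1.72, in place of 1.49 and 1.29. The differences between genotypes did not change. Of the 3 genes only Nfya lies on chromosome 17, where the median log2 fold changes were 0.48 and 0.50.

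**Figure D2:**
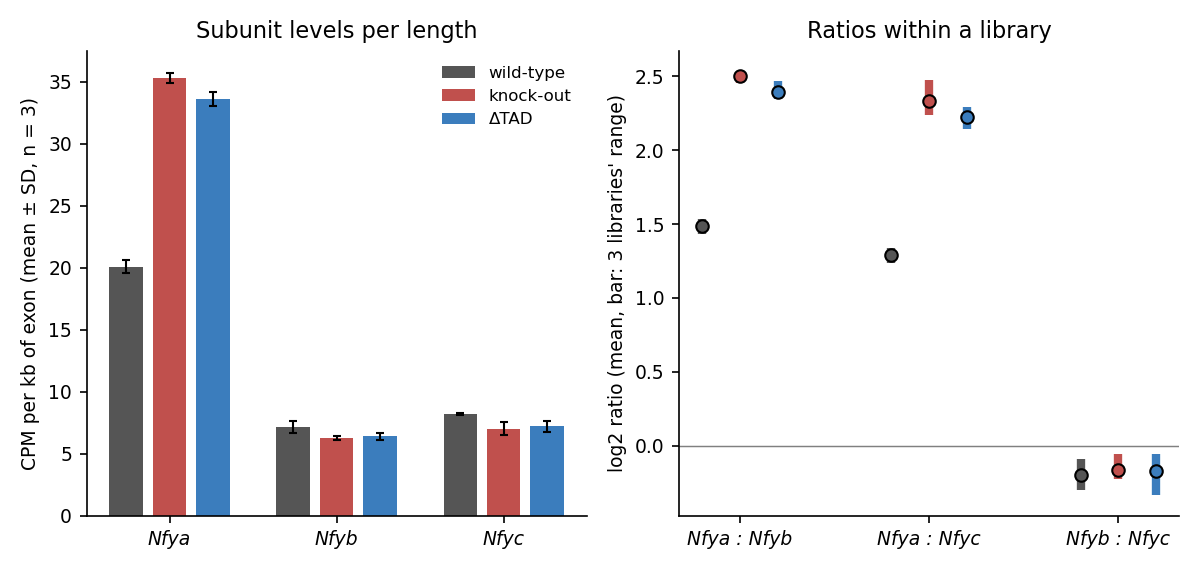
Left, mean level of the 3 NF-Y subunit genes in CPM per kb of exon (bars from 0, error bars SD, n = 3); right, log2 ratio between subunits within a library (points, mean; thick bars, range of the 3 libraries). The ratios of Nfya to either histone-fold subunit have means of 1.49 and 1.29 in wild-type and between 2.22 and 2.5 in the edited cells, while the ratio of Nfyb to Nfyc overlaps in all 3 genotypes.

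Cebpz (ENSMUSG00000024081, chr17:78919006-78937066) was modestly higher in both edited genotypes. It had 198, 208 and 201 CPM in wild-type, 222, 226 and 217 CPM in knock-out and 245, 245 and 233 CPM in ΔTAD libraries. The 3 ranges did not overlap, with wild-type lowest and ΔTAD highest. The log2 fold change was 0.13 (adjusted p = 0.00351) in knock-out and 0.25 (adjusted p = 2.18e-06) in ΔTAD, whereas the log2 difference between knock-out and ΔTAD, -0.12, narrowly missed the threshold (adjusted p = 0.0106). Cebpz overlaps Cebpzos on the opposite strand by 1301 bases, and the strand setting of the counting is not given in the sources used here. Cebpzos had 91 to 260 counts a library, against 3323 to 5093 for Cebpz.

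Of the Y-box genes, Ybx3 fell in both edited genotypes. Ybx3 (ENSMUSG00000030189, chr6:131364855-131388476) had 546, 543 and 542 CPM in wild-type, 397, 379 and 389 CPM in knock-out and 433, 443 and 449 CPM in ΔTAD libraries. The 3 genotypes were separated in every library, with knock-out lowest. The log2 fold change was -0.49 (SE 0.0326, adjusted p = 3.83e-12) in knock-out and -0.30 (adjusted p = 1.95e-08) in ΔTAD, and knock-out was lower than ΔTAD by 0.19 on the log2 scale (adjusted p = 6.2e-05). Ybx1 (ENSMUSG00000028639, chr4:119277981-119294604) had 591, 572 and 566 CPM in wild-type, 543, 524 and 536 CPM in knock-out and 559, 577 and 594 CPM in ΔTAD libraries. Knock-out was the low genotype, with a log2 fold change of -0.11 against wild-type (adjusted p = 0.00667) and -0.11 against ΔTAD (adjusted p = 0.00828), whereas ΔTAD and wild-type overlapped and differed by 0.00 (95% interval -0.07 to 0.07, adjusted p = 0.981). Between Ybx1 and a processed copy, Ybx1-ps2, reads can be shared, and this copy had at most 166 counts a library. Ybx2, the germ-cell member, had at most 5 counts.

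Within libraries, Ybx1 exceeded Ybx3 1.29-fold in wild-type, 1.67-fold in knock-out and 1.59-fold in ΔTAD macrophages per kilobase. None of the 3 ranges overlapped, and the exact permutation p was 0.1 in each comparison, the smallest possible with these numbers of libraries.

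In all, 6 of 6 members passed an adjusted p of 0.01 in knock-out against wild-type, where 45.2% of all genes tested did. Of these 6, 2 were higher (background 22.8%) and 4 were lower (background 22.4%), with a median of -0.15 over the members and -0.00 over all genes. In ΔTAD against wild-type 3 of 6 were called (2 higher, 1 lower, median -0.08) against a background of 49.7% (26.3% higher and 23.4% lower), and between knock-out and ΔTAD 2 of 6, both lower in knock-out (median -0.07), against 33.0% (13.9% higher and 19.1% lower). Both comparisons with wild-type use the same 3 wild-type libraries. Library ranges did not overlap for 6, 5 and 4 members in these comparisons, where 59.7%, 63.1% and 52.8% of all genes did not. Only Nfya and Ybx3 were called against wild-type in both edited genotypes under all 18 alternatives tried. The knock-out calls of Nfyb, Nfyc, Cebpz and Ybx1 lay close to the threshold: without wild-type replicate 1 or without knock-out replicate 2 only 2 members were called, without wild-type replicate 2, wild-type replicate 3 or knock-out replicate 1 only 3, and with library size alone as the scaling 2. The log2 fold changes of these 4 genes kept their direction in each of those fits, and that of Nfyc ranged from -0.29 to -0.16 over all alternatives. In ΔTAD, Cebpz was not called with library size alone as the scaling (log2 fold change 0.16, adjusted p = 0.0295), whereas Nfyb (-0.24, adjusted p = 0.00448) and Nfyc (-0.28, adjusted p = 0.00368) were called. Nfyc was also called without ΔTAD replicate 1 (-0.26, adjusted p = 0.003). Between knock-out and ΔTAD, the call of Ybx1 was lost in 14 of the 18 alternatives and that of Ybx3 with library size alone.

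**Figure D3:**
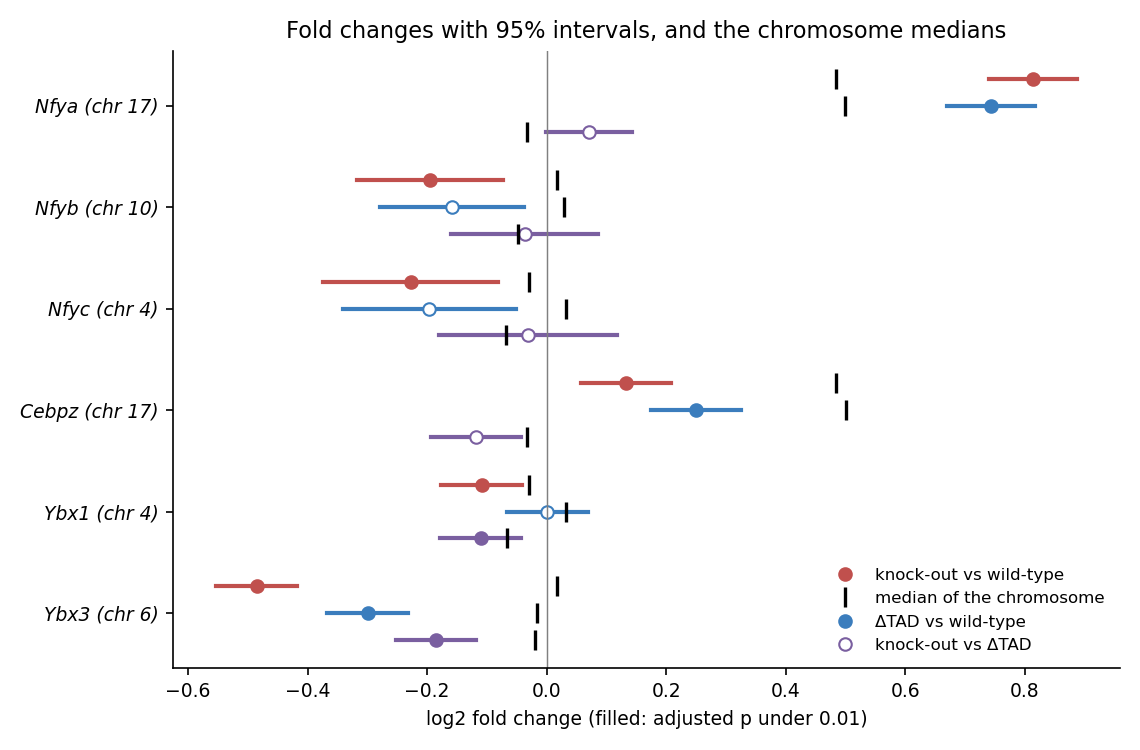
Log2 fold change of the 6 genes in the 3 comparisons (points; filled where the adjusted p is under 0.01) with 95% intervals (lines) and the median of the other genes tested on the same chromosome (black ticks). Nfya lies above its chromosome median of 0.48 in knock-out and 0.50 in ΔTAD, Cebpz lies below it, and the 4 genes on other chromosomes have chromosome medians near 0.

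Since Nfya and Cebpz both lie on chromosome 17, their fold changes were set beside those of the chromosome. Of the 746 genes tested there, 66.8% were called higher and 4.96% lower in knock-out, and 62.9% higher and 6.70% lower in ΔTAD macrophages. Nfya was 0.33 above the chromosome median in knock-out and 0.24 above it in ΔTAD on the log2 scale, and 80.3% and 75.3% of the other genes lay below it. Cebpz was under the median by -0.35 and -0.25, with 19.1% and 29.3% of the other genes below it. The same split was seen against the 40 nearest genes: Nfya exceeded their median by 0.27 and 0.26, with 32 and 33 of 40 genes below it, whereas Cebpz differed from theirs by -0.41 and -0.29. The size of these local differences depends on how many neighbours are taken, but not their sign with 10, 20 or 40 genes on each side.

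Against the wild-type mean, the median of 466 chromosome 17 genes with at least 10 CPM lay between 0.50 and 0.52 in the knock-out libraries and between 0.53 and 0.56 in the ΔTAD libraries. Nfya lay between 0.80 and 0.83 in knock-out and 0.72 and 0.77 in ΔTAD libraries, above the chromosome median in all 6. Cebpz lay between 0.10 and 0.16 and between 0.20 and 0.27, below the chromosome median in all 6. Copy number was not measured, and what part of the change in Nfya or Cebpz goes with the chromosome was not tested.

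**Figure D4:**
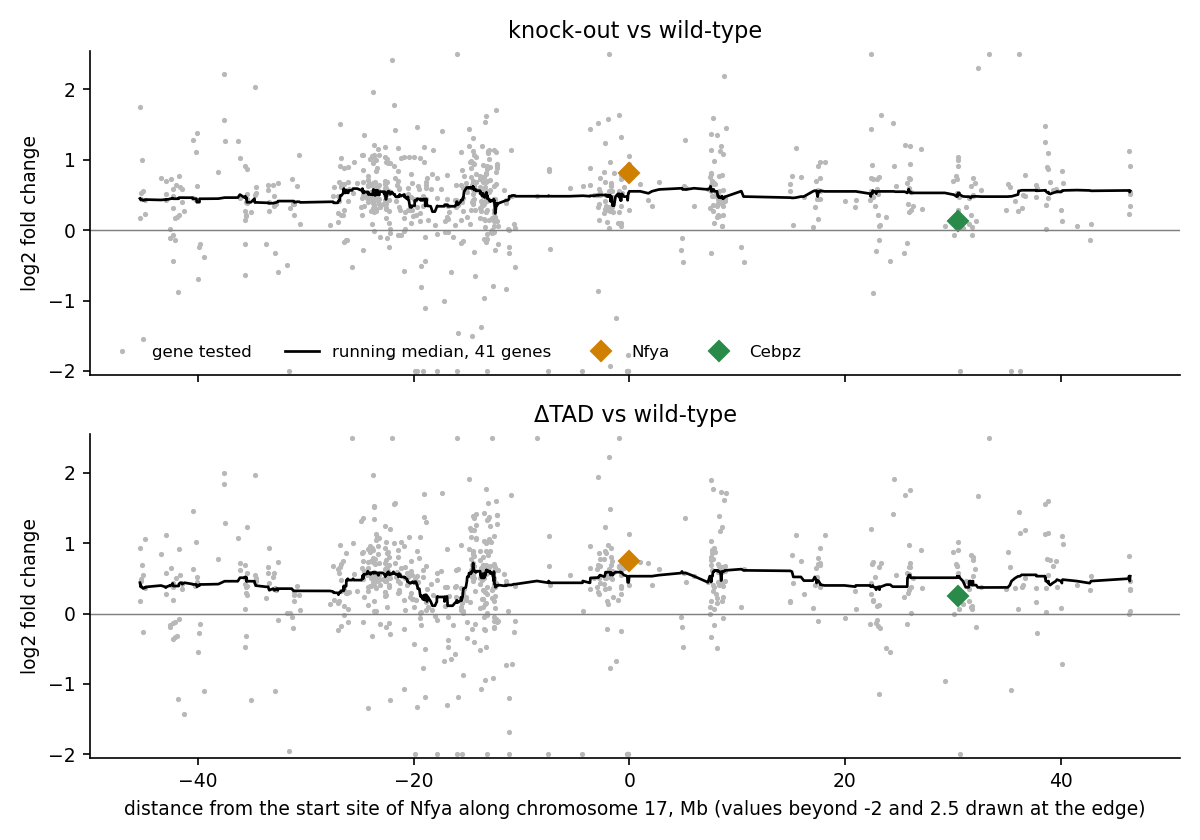
Log2 fold change of the genes tested on chromosome 17 (grey points) against their distance in Mb from the start of Nfya, with the running median of 41 genes (line), Nfya and Cebpz (diamonds), for knock-out (top) and ΔTAD (bottom) against wild-type. The running median stays above 0 along the chromosome in both, with Nfya above it and Cebpz below it.

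The nearest genes did not share 1 value. Oard1, which starts 0.108 kb from Nfya on the opposite strand, was higher by 0.28 in knock-out and by 0.40 in ΔTAD on the log2 scale, both called and both smaller than those of Nfya. Trem2, a lipid-sensing receptor of macrophages, was higher by 0.94 and 1.14. Mocs1, the next tested gene on the other side but 1018 kb from Nfya, was higher by 0.66 and 0.73. Treml1, at about 1 to 2 CPM, was higher by 1.05 in knock-out, while its ΔTAD value of 0.73 was not called (adjusted p = 0.0145). Around Cebpz, Ndufaf7 starts 0.070 kb away on the opposite strand and was higher by 0.29 and 0.26. Eif2ak2, the RNA-dependent kinase PKR, was higher by 1.04 and 0.90 and Cebpzos by 0.92 and 1.02. Prkd3 was higher by 0.48 in knock-out, whereas its ΔTAD value of 0.07 was not called (adjusted p = 0.132).

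The NF-Y genes were also set beside the C/EBP genes, which are compared here only by their levels. The summed level of the 3 NF-Y genes per kilobase was 0.653 of that of Cebpa, Cebpb, Cebpd, Cebpe and Cebpg in wild-type, rising to 0.795 in knock-out and 0.730 in ΔTAD macrophages. This increase turned into a decrease, with log2 differences of -0.39 and -0.49, when the log2 levels of the genes were averaged in place of summing their levels. Averaging logs gives the same weight to Cebpa, which rose from 3.04 CPM to 15.9 CPM in knock-out and 12.4 CPM in ΔTAD, as to the far more abundant Cebpb. Like the subunit ratios, the ratio of NF-Y to C/EBP depends on the length used, and it is given here for all exons only. Cebpe had 8.39 CPM in wild-type, 8.74 CPM in knock-out and 18.4 CPM in ΔTAD. Cebpg had 48.7, 64.9 and 58.4 CPM in the same order, and the means of Cebpb and Cebpd did not rise.

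Other proteins that bind CCAAT or compete at it were followed as a list of 7 genes, of which 4 passed the filter. The nuclear factor I gene Nfic rose by 0.56 in both edited genotypes, from 100.0 CPM to 148 CPM in knock-out and 147 CPM in ΔTAD. Cux1, the CCAAT-displacement protein, rose by 0.32 in both. Nfia fell by 1.89 (SE 0.3527) in knock-out and by 1.01 (SE 0.306) in ΔTAD on the log2 scale. Its means were low, at 1.97 CPM in wild-type, 0.514 CPM in knock-out and 0.936 CPM in ΔTAD. The lowest count of Nfia in a library was 3. Nfix did not pass the threshold, at -0.10 and -0.17.

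The transcription factors known to act beside NF-Y were counted over 16 tested genes. In knock-out 4 rose and 3 fell (median 0.01), and in ΔTAD 8 rose and 3 fell (median 0.18). The share called was 43.8% in knock-out, near the 45.2% of all genes, and 68.8% in ΔTAD, against 49.7%. The sterol regulators had the largest fold changes of them, with log2 values of 0.48 and 0.65 for Srebf2 and 0.31 and 0.48 for Srebf1. Srebf2 rose from 213 CPM to 297 CPM in knock-out and 334 CPM in ΔTAD, and Srebf1 from 115 CPM to 142 and 159 CPM. Zhx1, a zinc-finger homeobox gene named as an NF-YA partner, fell by 0.29 and 0.21, the mitotic regulator Mybl2 fell by 0.21 in knock-out, and Sp1, which binds GC boxes, fell by 0.23 in ΔTAD. Among 5 relatives of NF-YB and NF-YC with histone folds, Pole3 fell by 0.26 in knock-out, and Chrac1 and Drap1 rose by 0.31 and 0.15 in ΔTAD.

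Genes whose promoters are known for CCAAT boxes did not move in 1 direction. The 8 sterol genes tested were all called higher in both edited genotypes, with a median of 0.69 in knock-out and 0.71 in ΔTAD. Of all genes, 22.8% were called higher in knock-out and 26.3% in ΔTAD. Hmgcs1, an early enzyme of cholesterol synthesis, had 90.0 ± 1.5 CPM in wild-type, 191 ± 7.03 CPM in knock-out and 198 ± 10.5 CPM in ΔTAD macrophages (SD, n = 3). Fdft1, squalene synthase, rose by 0.90 in knock-out and 1.13 in ΔTAD. On the other hand, 6 of 7 genes of the endoplasmic reticulum stress list were called lower in both, with medians of -0.64 and -0.47. Of all genes, 22.4% and 23.4% were called lower. The chaperone gene Hsp90b1 fell from a mean of 3601 CPM in wild-type to 1820 CPM in knock-out and 1854 CPM in ΔTAD macrophages (log2 fold changes -0.98 ± 0.0232 and -0.96 ± 0.0231, SE), and Pdia4 fell by 0.88 and 0.81 on the log2 scale. Ddit3 was not called, at 0.14 and -0.17. Median log2 fold changes over all genes were -0.00 in both comparisons.

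The windows of 2 stress genes show the arrangement in which NF-Y is known to act with ATF6, a CCAAT box followed by a CCACG sequence. The capitals mark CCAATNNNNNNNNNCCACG on either strand.
Hsp90b1, chr10:86705395-86705694, minus strand: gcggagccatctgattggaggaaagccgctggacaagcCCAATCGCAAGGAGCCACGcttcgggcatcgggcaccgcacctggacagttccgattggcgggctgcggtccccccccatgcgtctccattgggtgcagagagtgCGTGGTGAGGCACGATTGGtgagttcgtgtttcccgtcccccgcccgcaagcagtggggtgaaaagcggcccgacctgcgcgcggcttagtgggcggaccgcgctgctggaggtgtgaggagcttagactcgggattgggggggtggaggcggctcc
Hspa5, chr2:34771840-34772139, plus strand: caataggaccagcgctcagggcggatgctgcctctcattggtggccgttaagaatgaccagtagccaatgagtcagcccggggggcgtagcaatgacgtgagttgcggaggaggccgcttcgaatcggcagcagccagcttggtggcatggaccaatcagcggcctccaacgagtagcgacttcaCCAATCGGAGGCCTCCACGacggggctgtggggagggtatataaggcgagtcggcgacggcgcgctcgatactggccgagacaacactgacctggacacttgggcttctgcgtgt
This longer element was found in 0.119% of all windows, at 2 places in the window of Hsp90b1 and at 1 in those of Hspa5 and Calr. Hspa5 fell by 0.82 in knock-out and by 0.64 in ΔTAD on the log2 scale, and was lower by 0.18 in knock-out than in ΔTAD. A CCAAT on either strand was present in 6 of 7 windows of the stress genes, in 8 of 11 of the cell-cycle genes and in both windows found for the sterol genes, those of Hmgcs1 and Cyp51. A comparison of all genes with and without the box was not made, as only 64.2% of the genes tested had a window.

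Of the 13 cell-cycle genes with CCAAT promoters, 1 was called higher and 6 lower in knock-out (median -0.07), where 22.8% and 22.4% of all genes were. In ΔTAD 3 were called higher and 3 lower (median -0.03), against 26.3% and 23.4% of all genes. The shares called in either direction were 53.8% and 46.2%, against 45.2% and 49.7% of all genes. The phosphatase genes Cdc25a and Cdc25b changed in opposite directions, by -0.40 and 0.29 in knock-out and by -0.33 and 0.27 in ΔTAD. Aurka, a mitotic kinase, fell by 0.36 in knock-out, and Ccnb2, a mitotic cyclin, rose by 0.29 in ΔTAD. Between knock-out and ΔTAD both differed, by -0.34 and -0.29. Of 6 class II genes, whose promoters carry a Y-box bound by NF-Y, only Cd74 and H2-DMa passed the filter. Cd74, the invariant chain, had 58.7 ± 1.45 CPM in wild-type, 46.1 ± 5.04 CPM in knock-out and 79.7 ± 6.83 CPM in ΔTAD macrophages (SD, n = 3), so it fell in knock-out (-0.35) and rose in ΔTAD (0.44). H2-DMa fell by 0.65 in knock-out and was not called in ΔTAD, at -0.15, although it lies on chromosome 17, where the medians were above 0.

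**Figure D5:**
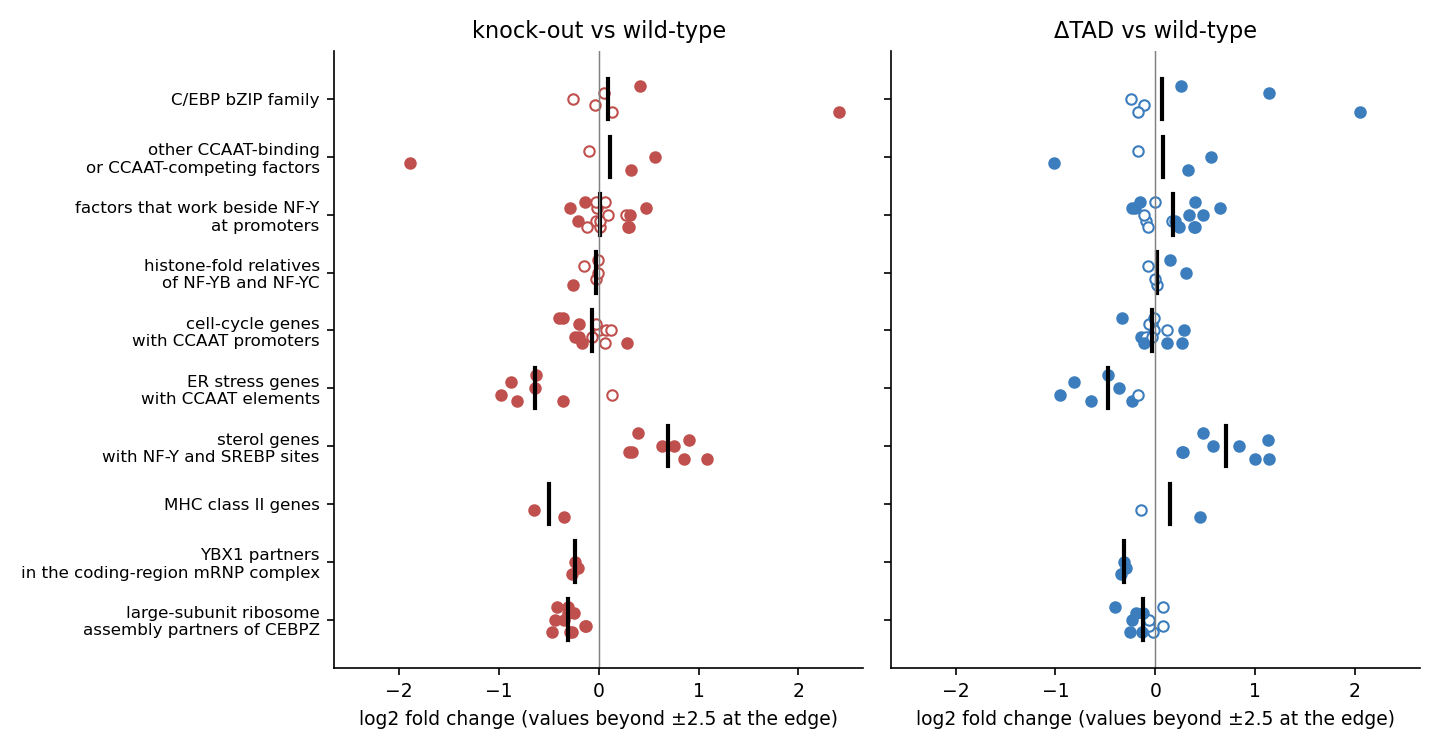
Log2 fold change of the tested genes of 10 lists around the CCAAT-box factors in knock-out (left) and ΔTAD (right) against wild-type (points; filled where the adjusted p is under 0.01), with the median of each list (black lines). Sterol genes lie to the right and stress genes, except Ddit3 in knock-out, to the left of 0 in both panels. The other cold-shock-domain genes are not drawn, because Csdc2 and Lin28b had a genotype at or under 3 counts in every library.

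The genes listed beside CEBPZ for ribosome assembly were mostly called lower. The role of each gene, in the large subunit or elsewhere, and its contact with CEBPZ were not tested. All 11 genes of this list were called lower in knock-out, with a median of -0.31. In ΔTAD 6 of 11 were called lower, with a median of -0.12, and 9 were lower in knock-out than in ΔTAD. The shares called lower over all genes were 22.4% in knock-out, 23.4% in ΔTAD and 19.1% in knock-out against ΔTAD. Bop1 fell by 0.47 in knock-out and 0.25 in ΔTAD on the log2 scale, Pdcd11 fell by 0.42 and 0.41, and Pes1 fell by 0.31 in knock-out, while its ΔTAD value of 0.08 was not called and the difference between the 2 genotypes was -0.39. Cebpz itself was called higher in both genotypes, but it lies on chromosome 17 and was below the median of that chromosome in both. None of the 11 listed genes lies on chromosome 17.

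The mRNA-binding partners of YBX1 were close to each other. Hnrnpu, Syncrip and Dhx9 were called lower in both, with medians of -0.24 and -0.31, and Igf2bp1 did not pass the filter. Of all genes, 22.4% and 23.4% were called lower. Hnrnpu fell from 1749 CPM to 1450 CPM in knock-out and 1383 CPM in ΔTAD. Of the other cold-shock-domain genes, Lin28b, which encodes an RNA-binding protein that blocks let-7, had 35, 39 and 46 counts in wild-type, 17, 29 and 15 in ΔTAD and 0 in all 3 knock-out libraries, which is at least 13.5-fold lower than wild-type against a floor of 3 counts per library. Csdc2 had 3 counts in each wild-type library, 6 to 11 in knock-out and 13 to 20 in ΔTAD libraries. Carhsp1 did not pass the threshold, at 0.11 and 0.04, and Ybx2 and Lin28a did not pass the filter.

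Last, the genes whose levels ran most like each member across the 9 libraries were listed by Pearson's r of log2 CPM over 12718 genes, as a description over points that share 3 genotypes. For Nfya these were Fam107b (0.999), Rab31 (0.999) and Dusp4 (0.998), and 20 of its 50 closest genes lay on chromosome 17, which holds 5.18% of the genes compared. For Ybx3 they were Akt1 (0.998), Cdc34 (0.998) and Wars (0.997), and 11 of the closest 50 lay on chromosome 12, which holds 3.74% of the genes compared. For Cebpz they were Col18a1 (0.99), Coprs (0.99) and Ubxn4 (0.98), with 4 of 50 on chromosome 17. Ybx1 was closest to Ppp5c (0.99), Kat2a (0.98) and Csk (0.98). Closest to Nfyb were AU022252 (0.97), Apoo (0.96) and Xrcc5 (0.95), and closest to Nfyc were Gm1866 (0.98), Dcp1a (0.97) and Gstcd (0.97). The lowest r among the 50 closest genes was 0.90 for both Nfyb and Nfyc, and between 0.94 and 0.99 for the other members.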

How the data were processed

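Total RNA of 9 RAW264.7 libraries was depleted of ribosomal RNA and sequenced. The submitters' processing notes name Trimmomatic 0.36, HISAT2 2.3.4.3 and HTSeq; the paper gives other versions of the first 2, and GRCm38 with Ensembl genes. The authors deposited raw counts per Ensembl gene and library, without normalization. The mode and strand setting of the counting are not given in the sources used here, so overlapping and antisense genes are uncertain. Libraries were grouped by the genotype label. Of 55487 identifiers, 55227 matched the GENCODE annotation of GRCm38, which gave symbols, positions and exon lengths.

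edgeR 4.0.16, run in R 4.3.3, was used. Low genes were removed with filterByExpr (minimum count 10, minimum total count 15), libraries were scaled by TMM (factors from 0.888, for ΔTAD replicate 1, to 1.027), and 1 quasi-likelihood model was fitted to all 9 libraries. Genes with a Benjamini-Hochberg adjusted p under 0.01, the study's threshold, over all 14312 genes were called. No call was adjusted over the members alone. Libraries had 46.7% to 53.2% of their records on genes, and a count of 3, the floor, is 0.143 to 0.186 CPM. Other tools tried were limma-voom (limma 3.58.1) and DESeq2 1.42.0, besides other scalings, filters and thresholds, the replicate number as a block, and leaving out each library. Counts were simulated for knock-out against wild-type with 14065 genes. Of genes changed by 0.25, 0.5 and 1 on the log2 scale, 22.4%, 67.2% and 81.8% were called. For ΔTAD these shares were 29.9%, 59.7% and 89.4%. None was called in the wrong direction, and 1 unchanged gene was called for knock-out. Only 67, 67 and 66 genes were changed by these amounts, all genes had the same spread, and no chromosome was shifted. In the data 6468 of 14312 genes were called in knock-out, so these rates do not describe the fits reported here.

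The members and lists were chosen with earlier results of these data known. Named are the members, at most the 2 highest and 2 lowest called genes of each list and comparison with at least 1 CPM, the 2 nearest tested genes on each side of Nfya and Cebpz, and the 3 genes most like each member. Other list genes printed with their values (Cebpd, Nfix, Ddit3, Syncrip, Igf2bp1, Csdc2, Carhsp1, Ybx2, Lin28a and single values of genes that the rule named in another comparison) and the search for the longer CCAAT element were added after their values were seen. A further cold-shock-domain gene was taken off that list after its values were seen and is not reported here.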

Additional observations from a re-analysis of the deposited data

How the results depend on the processing

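Of 324 alternative fits of the members' log2 fold changes, 256 kept direction and side of the threshold, 45 fell short of it, 9 passed it newly and 14 changed sign. Nfya stayed between 0.79 and 0.84 in knock-out and 0.65 and 0.77 in ΔTAD, and Ybx3 between -0.50 and -0.46 and between -0.39 and -0.28. The 6 members called in knock-out became 2 with library size alone, 3 with TMM factors from genes off chromosomes 12 and 17, and 2 to 6 when a library was left out. The 3 called in ΔTAD became 5 at an adjusted p under 0.05. The 2 called between knock-out and ΔTAD became 1 with DESeq2's size factors, 1 with TMM factors from genes off chromosomes 12 and 17, 1 with only the 2 genotypes compared, 1 to 2 when a library was left out, and 0 with library size alone in edgeR, where 1 member had an unadjusted p under 0.05 (0.0278); DESeq2's own test called 2 and limma-voom 3. Library size alone also moved the calls over all genes, from 3765 higher and 3350 lower to 2585 and 3943 in ΔTAD, and from 1990 and 2740 to 2281 and 1024 between knock-out and ΔTAD, with shifts of -0.0854 and 0.0711 in the median of all genes. Same-numbered libraries did not deviate together (correlations from -0.07 to 0.02), so the numbers do not pair them; with the replicate block 4, 3 and 1 members were called, and Nfyc and Ybx1 were lost in knock-out (adjusted p = 0.0125 and 0.0157).

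Among the members' log2 fold changes, changes of sign were of values near 0. Ybx1 in ΔTAD, 0.00 as reported, was -0.0097 by DESeq2, -0.0100 with its size factors, -0.0867 with library size, -0.0031 with 2 genotypes, and between -0.0225 and 0.0217 when a library was left out. Between knock-out and ΔTAD, Nfyb became 0.0341 and Nfyc 0.0396 with library size, and Nfyc ranged from -0.0876 to 0.0363 when a library was left out. Not near 0 was the NF-Y to C/EBP log2 difference, which averaging log2 levels turned from 0.28 to -0.39 in knock-out and from 0.16 to -0.49 in ΔTAD. With the longest transcript as the length, wild-type levels became 39.7 CPM per kb for Nfya, 9.76 for Nfyb, 12.1 for Nfyc, 49.7 for Cebpz, 354 for Ybx1 and 293 for Ybx3, those in knock-out 69.7, 8.52, 10.3, 54.5, 328 and 210 in the same order, and those in ΔTAD 66.4, 8.71, 10.6, 59.1, 354 and 238, so Nfya passed Cebpz in both; log2 ratios became 2.03 for Nfya to Nfyb, 1.72 for Nfya to Nfyc and -0.31 for Nfyb to Nfyc. The difference of Nfya from its neighbours became 0.43 with 10 genes on each side in knock-out and 0.17 with 40 in ΔTAD; that of Cebpz became -0.26 with 10 in knock-out, and -0.11 with 10 and -0.18 with 40 in ΔTAD. The cause of these shifts was not tested, except that another length, number of neighbours or kind of mean changes the value by its construction. Of 132 list counts without ΔTAD replicate 1 or with the other TMM factors, alternatives chosen after seeing the data, 8 moved by more than 1.5 times, none of them a count of sterol, stress or ribosome assembly genes against wild-type. The alternatives planned for a comparison of genes by CCAAT promoter were not run.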
